A study of Mus musculus with 3 samples.

Results

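Dividing cells were sought among 4374 wound macrophages through 47 genes of the cell division cycle, chosen by name. They are 28 genes of mitosis, 16 of DNA replication and 3 broadly expressed genes that stand higher in dividing cells (Stmn1, H2afz and Hmgb2), and all 47 were present among the 13242 genes of the deposited table. The cells were sorted as macrophages from mouse quadriceps taken 1 week after surgery for volumetric muscle loss, the removal of a piece of muscle. PCL wounds held polycaprolactone, a synthetic polyester, UBM wounds held urinary bladder matrix, a scaffold of decellularised tissue, and saline wounds received saline. Each condition was 1 library, made with a 10x droplet kit that tags each captured RNA near its 3′ end with a unique molecular identifier (UMI). The strain and age of the mice, the number of mice per library and the sorting markers are not stated in the labels. With 1 library per condition nothing was tested, and all intervals are 95% intervals for counting error only.

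The libraries held 1753 PCL cells with 11006118 UMIs, 2280 UBM cells with 14586276 UMIs and 341 saline cells with 1888343 UMIs, with medians of 5662, 5476 and 4594 UMIs per cell in that order. Levels are given as counts per 1000000 UMIs of a library (CPM). The authors assigned every cell to 1 of 9 clusters, whose letters the labels do not explain. Of the 12 macrophage markers, all 12 were detected in each library. Cluster F2 carried neutrophil markers, and 6 of 4368 distinct cell barcodes occurred in more than 1 library. The 47 genes took 0.132% of UMIs with PCL, 0.148% with UBM and 0.205% with saline.

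In a dividing cell the replication genes are switched on first, by E2F factors, as DNA synthesis begins, and the mitotic genes follow in late cycle, when cyclin B and Cdk1 drive chromosome condensation, spindle assembly and separation. Many mitotic promoters carry a cell cycle homology region (CHR) bound by MuvB complexes, near CCAAT boxes bound by NF-Y. Most tissue macrophages rest outside the cycle, yet macrophages can divide locally under signals such as CSF1 and IL-4, while others arrive as monocytes that have stopped dividing.

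The promoters of 6 members are shown because mitotic and replication genes differ in these motifs. Capitals mark matches on either strand to CHR (TTTGAA, or TTCAAA), the CCAAT box (CCAAT, or ATTGG) and an E2F site (TTTCGCGC or TTTGGCGC, or their complements GCGCGAAA and GCGCCAAA). Each sequence covers 120 bases before to 29 after the first transcribed base, 150 bases in all, in the direction of the gene, from RefSeq on GRCm38.p6. The mitotic genes are Ccnb2 (chr9:70421525-70421674, minus strand), Cdc20 (chr4:118437314-118437463, minus strand), Ube2c (chr2:164769809-164769958, plus strand) and Cdk1 (chr10:69352883-69353032, minus strand), and the replication genes are Mcm6 (chr1:128359676-128359825, minus strand) and Mcm7 (chr5:138171854-138172003, minus strand). In Mcm6 the first capitals hold 2 E2F matches that overlap, on opposite strands, and in Mcm7 the E2F match overlaps a CCAAT box.
Ccnb2: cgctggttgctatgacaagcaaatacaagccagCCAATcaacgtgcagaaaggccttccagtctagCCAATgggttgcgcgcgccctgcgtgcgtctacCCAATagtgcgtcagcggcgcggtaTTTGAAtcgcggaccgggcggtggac
Cdc20: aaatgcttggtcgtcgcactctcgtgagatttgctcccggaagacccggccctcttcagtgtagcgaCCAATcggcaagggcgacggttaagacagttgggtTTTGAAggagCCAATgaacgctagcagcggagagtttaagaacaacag
Ube2c: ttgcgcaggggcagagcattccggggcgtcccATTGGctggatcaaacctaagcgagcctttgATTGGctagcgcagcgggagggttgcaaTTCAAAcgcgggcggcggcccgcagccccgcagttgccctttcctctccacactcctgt
Cdk1: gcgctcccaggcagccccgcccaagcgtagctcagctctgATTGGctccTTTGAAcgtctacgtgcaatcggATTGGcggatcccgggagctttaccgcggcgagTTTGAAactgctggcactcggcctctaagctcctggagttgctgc
Mcm6: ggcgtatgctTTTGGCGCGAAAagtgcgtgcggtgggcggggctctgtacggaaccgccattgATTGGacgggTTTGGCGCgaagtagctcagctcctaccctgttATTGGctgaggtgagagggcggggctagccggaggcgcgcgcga
Mcm7: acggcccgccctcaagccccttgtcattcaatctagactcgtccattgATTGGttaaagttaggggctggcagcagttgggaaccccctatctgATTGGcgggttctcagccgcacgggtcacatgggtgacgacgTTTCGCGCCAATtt

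Ccnb2, Cdc20, Ube2c and Cdk1 each held a CHR close to the start and CCAAT boxes, whereas Mcm6 and Mcm7 held E2F matches and no CHR in the window shown. Mcm6 and Mcm7 were picked because they hold an E2F match in that window, and the mitotic genes shown were picked by name. The sequences are thus examples, and their contrast follows in part from the choice. The counts below cover all promoters at hand. Promoters of 300 bases were at hand for 38 of the 47 genes, and not for Ccna2, Tpx2, Kif20a, Aurkb, Mcm4, Gins2, Ccne2, Stmn1 and H2afz. A CHR was found in 18 of 24 mitotic promoters (75%), in 1 of 13 replication promoters (7.69%) and in 5466 of 27025 genes with a promoter (20.2%). A CCAAT box was found in 22 of 24 mitotic (91.7%), 8 of 13 replication (61.5%) and 41.1% of all genes. An E2F match was found in 5 of 13 replication promoters (38.5%), those of Mcm3, Mcm5, Mcm6, Mcm7 and Cdt1, in 1 of 24 mitotic promoters (4.17%), that of Cdk1, and in 0.929% of all genes. Another list of 62 mitotic genes held a CHR in 29 of the 49 with a promoter (59.2%) and an E2F match in 2 (4.08%). A list of 61 further replication genes held a CHR in 13 of 48 (27.1%) and an E2F match in 11 (22.9%). Between 30 bases before and 45 after the start, a window set after the matches were seen, 17 mitotic, no replication and 4.45% of all promoters held a CHR. These matches describe letters and were not tested as binding sites.

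**Figure D1:**
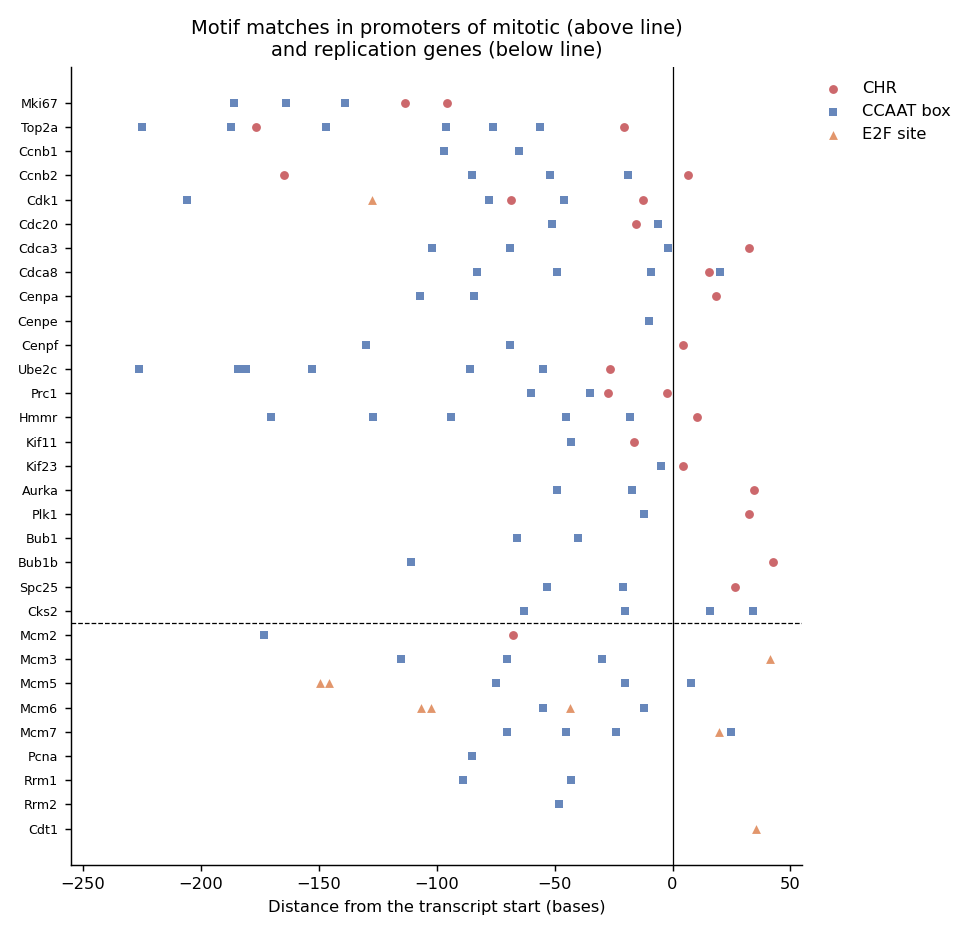
Matches to CHR (circles), the CCAAT box (squares) and the E2F site (triangles) in promoters of the mitotic genes (above the dashed line) and replication genes (below it), by the distance of the match from the transcript start in bases, with genes that hold no match left out. CHR matches gather around the start of 17 mitotic genes, and triangles occur in 5 replication genes and in Cdk1.

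Mitotic UMIs were rare and unevenly spread over cells. With the rule of 2 or more UMIs over the 28 mitotic genes, 244 of 1753 (13.9%, 12.3 to 15.6%) PCL cells counted as mitotic, 325 of 2280 (14.3%, 12.8 to 15.8%) UBM cells and 77 of 341 (22.6%, 18.3 to 27.4%) saline cells. The rule also took 9 of 56 (16.1%, 7.62 to 28.3%) cells of F2, whose neutrophil markers are those of a cell that no longer divides, at a median of 4346 UMIs per cell against 5496 over all cells. The PCL and UBM shares did not exceed that of F2, so at this threshold they are not read as shares of dividing cells. F2 is no clean zero, since it also carried macrophage markers, at 19670 CPM against 19425 CPM in RP2. Its 56 cells, with a wide interval, thus set no background level for whole libraries. The saline share lies within the F2 interval. Many of the cells the rule took held exactly 2 mitotic UMIs, 141 of 244 with PCL, 165 of 325 with UBM and 29 of 77 with saline.

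A small group of cells held many more mitotic UMIs. Cells with 10 or more mitotic UMIs, a threshold set after the distribution was seen, numbered 21 of 1753 (1.20%, 0.743 to 1.83%) with PCL, 70 of 2280 (3.07%, 2.40 to 3.86%) with UBM and 13 of 341 (3.81%, 2.05 to 6.43%) with saline, together 104 of 4374. No F2 cell of 56 reached it, which allows a share of up to 5.36%. These few cells held 46.5% of all mitotic UMIs with PCL, 72.03% with UBM and 66.4% with saline, and 4.87% of all UMIs. A further 31 cells lay just under the threshold, at 6 to 9 mitotic UMIs, 5 of them PCL, 19 UBM and 7 saline. The share of PCL cells was 0.390 times that of UBM cells (0.228 to 0.643) and 0.314 times that of saline cells (0.150 to 0.683), while UBM over saline was 0.805 (0.442 to 1.59), an interval that includes 1.

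**Figure D2:**
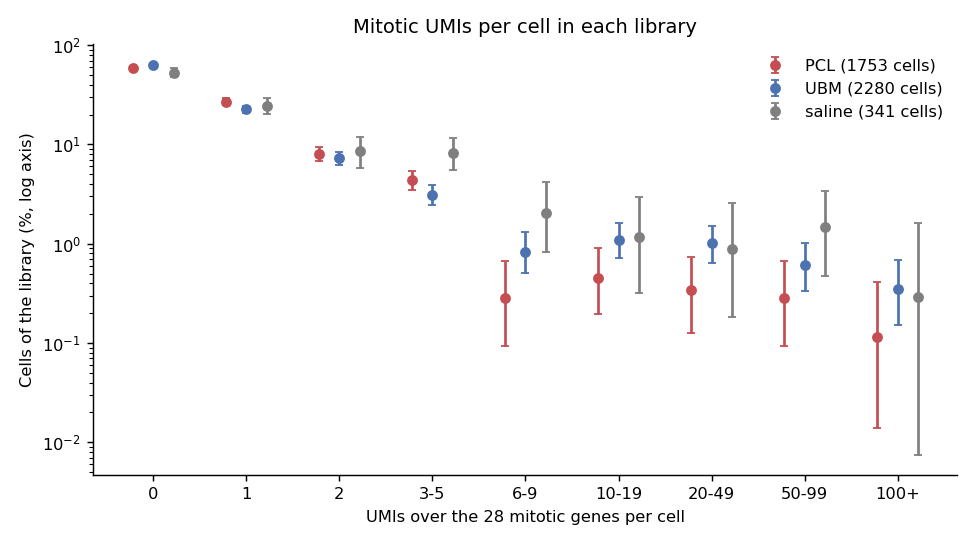
Share of cells (percent, log axis) by the number of UMIs over the 28 mitotic genes in PCL, UBM and saline libraries, with exact 95% intervals. Shares fall steeply from 0 to 2 UMIs. Beyond that the ranges of UMIs widen along the axis, so the flatter course there depends on their widths. In each range from 6 UMIs upward the PCL point lies under those of UBM and saline.

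The cells with 10 or more mitotic UMIs were also large in total. Their median was 12473 UMIs with PCL, 12462 with UBM and 12750 with saline, against 5626, 5368 and 4399 UMIs in the other cells of the same libraries. Doublets were not called, so the part of droplets with more than 1 cell was not tested. With every cell reduced at random to 2500 UMIs, a step that omitted 154 PCL, 162 UBM and 79 saline cells, 5 or more mitotic UMIs were found in 13 of 1599 (0.813%, 0.434 to 1.39%) PCL, 48 of 2118 (2.27%, 1.68 to 2.99%) UBM and 12 of 262 (4.58%, 2.39 to 7.86%) saline cells, the same order. Before that reduction the cells with 10 or more mitotic UMIs held a median of 25 of them over 12 different mitotic genes with PCL, 30 over 16 with UBM and 32 over 16 with saline. The most mitotic cell of each library lay in cluster FP1. It held 167 mitotic UMIs over 28 of 28 genes with PCL (24 of Ube2c, 22 of Cks2), 189 over 25 genes with UBM (35 of Ube2c, 16 of Birc5) and 104 over 23 genes with saline (20 of Birc5, 18 of Cks2).

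Whether a gene's UMIs fell into these cells was described with the cells chosen each time without that gene. Of the 28 mitotic genes, 25 had over 50% of their UMIs in the chosen cells, with a range of 32.3 to 93.8% and a median of 74.2%. By library 18 of 28 passed 50% with PCL, 26 with UBM and 24 with saline, and with PCL Cdk1 (36 of 84 UMIs) and Tpx2 (22 of 53) were among the 10 that did not. Since the class is built from the other mitotic genes, this describes how far they occur in the same cells. Nusap1, a spindle microtubule protein, was the most confined with 93.8%, followed by Hmmr, a hyaluronan and spindle protein, with 89.02%. Cenpa (32.3%), the histone that marks centromeres, Cks2 (36.8%), a small subunit of Cdk1 kinases, and Cdca8 (49.4%) of the chromosomal passenger complex were the 3 exceptions over the pooled libraries. Outside the 104 cells, Cenpa and Cks2 made up 57.6% of the remaining mitotic UMIs with PCL, 43.8% with UBM and 59.1% with saline.

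Among the genes that drive entry into mitosis, Cdk1, the kinase of mitosis (chromosome 10, 69335146 to 69352938, minus strand, GRCm38), had 84 UMIs in 56 PCL cells (7.63 CPM), 214 in 106 UBM cells (14.7 CPM) and 31 in 19 saline cells (16.4 CPM). Ccnb1, a cyclin B that activates Cdk1 (chromosome 13, 100778650 to 100786570, minus strand), had 34 UMIs in 18 PCL cells (3.09 CPM), 92 in 42 UBM cells (6.31 CPM) and 21 in 11 saline cells (11.1 CPM). Ccnb2, the other cyclin B, had 65 UMIs in 31 PCL cells (5.91 CPM), 139 in 61 UBM cells (9.53 CPM) and 29 in 11 saline cells (15.4 CPM). All 3 stood lowest with PCL and highest with saline. Of the 21 saline Ccnb1 UMIs, 20 lay in the cells with 10 or more UMIs over the other mitotic genes. The intervals count each UMI as separate, so they are too narrow here. The ratio of PCL to saline was 0.465 (0.305 to 0.726) for Cdk1, 0.278 (0.157 to 0.504) for Ccnb1 and 0.385 (0.245 to 0.618) for Ccnb2. Ccna2, the cyclin of S and G2 phase, departed from that order, with 30 UMIs in 19 PCL cells (2.73 CPM), 121 in 59 UBM cells (8.30 CPM) and 13 in 9 saline cells (6.88 CPM). Its UBM and saline intervals overlapped widely. The kinases Plk1 and Aurka, which mature the spindle poles, were sparse, Plk1 with 12 PCL, 37 UBM and 8 saline UMIs and Aurka with 33, 58 and 10 in the same libraries.

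The genes of chromosome structure and the passenger complex included several whose PCL level lay under both other libraries. Top2a, a topoisomerase that untangles sister chromosomes (chromosome 11, 98992943 to 99024189, minus strand), had 115 UMIs in 54 PCL cells (10.4 CPM), 363 in 101 UBM cells (24.9 CPM) and 63 in 21 saline cells (33.4 CPM). Birc5, survivin of the passenger complex (chromosome 11, 117849251 to 117855743, plus strand), had 112 UMIs in 48 PCL cells (10.2 CPM), 479 in 121 UBM cells (32.8 CPM) and 71 in 17 saline cells (37.6 CPM). Aurkb, the kinase of that complex, had 26 UMIs in 20 PCL cells (2.36 CPM), 111 in 74 UBM cells (7.61 CPM) and 23 in 19 saline cells (12.2 CPM). For each of these 3 the PCL level lay under those of both UBM and saline. The intervals count each UMI as separate, although a few cells hold many of them. The ratio of PCL to UBM was 0.420 (0.337 to 0.519) for Top2a, 0.310 (0.250 to 0.381) for Birc5 and 0.310 (0.194 to 0.479) for Aurkb. Mki67, a coat protein of mitotic chromosomes widely used as a marker of cycling cells, had 54 UMIs in 29 PCL cells (4.91 CPM), 86 in 59 UBM cells (5.90 CPM) and 24 in 17 saline cells (12.7 CPM). Its ratio of PCL to UBM was 0.832 (0.581 to 1.18), an interval that includes 1.

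The genes of mitotic exit act through the anaphase-promoting complex, which Cdc20 activates and for which Ube2c supplies ubiquitin. Ube2c (chromosome 2, 164769898 to 164778822, plus strand) had 105 UMIs in 34 PCL cells (9.54 CPM), 308 in 79 UBM cells (21.1 CPM) and 43 in 14 saline cells (22.8 CPM). Cdc20 (chromosome 4, 118432901 to 118437352, minus strand) had 30 UMIs in 19 PCL cells (2.73 CPM), 67 in 34 UBM cells (4.59 CPM) and 27 in 9 saline cells (14.3 CPM). Cdc20 was thus highest with saline, and its ratio of UBM to saline was 0.321 (0.203 to 0.523), while for Ube2c it was 0.927 (0.672 to 1.31). A single cell held 24 of the 105 Ube2c UMIs with PCL, 35 of 308 with UBM and 14 of 43 with saline.

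Kinetochore and spindle genes were sparse. Kif11, a motor that pushes spindle poles apart, had 1.18 CPM with PCL, 2.88 with UBM and 4.77 with saline. Cenpf, a large kinetochore protein, had 4.27 CPM with PCL, 6.17 with UBM and 14.8 with saline, and Prc1, which bundles the midzone of the spindle, had 3.18 CPM with PCL, 6.58 with UBM and 9.003 with saline. Nusap1 had 3.09 CPM with PCL, 8.23 with UBM and 12.7 with saline. These 4 were lowest with PCL and highest with saline. Cenpa had 388 UMIs in 265 PCL cells (35.3 CPM), 585 in 345 UBM cells (40.1 CPM) and 126 in 79 saline cells (66.7 CPM). Cks2 (chromosome 13, 51645232 to 51650660, plus strand) had 407 UMIs in 275 PCL cells (36.98 CPM), 408 in 227 UBM cells (27.97 CPM) and 160 in 66 saline cells (84.7 CPM). Both genes had many scattered single UMIs, and Cks2 stood higher with PCL than with UBM, a ratio of 1.32 (1.15 to 1.52). Spc25, a subunit of the Ndc80 complex that grips microtubules, was highest with UBM, at 4.36 CPM with PCL, 10.01 with UBM and 5.83 with saline. Bub1 had 15 PCL, 35 UBM and 2 saline UMIs, too few to order the libraries.

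**Figure D3:**
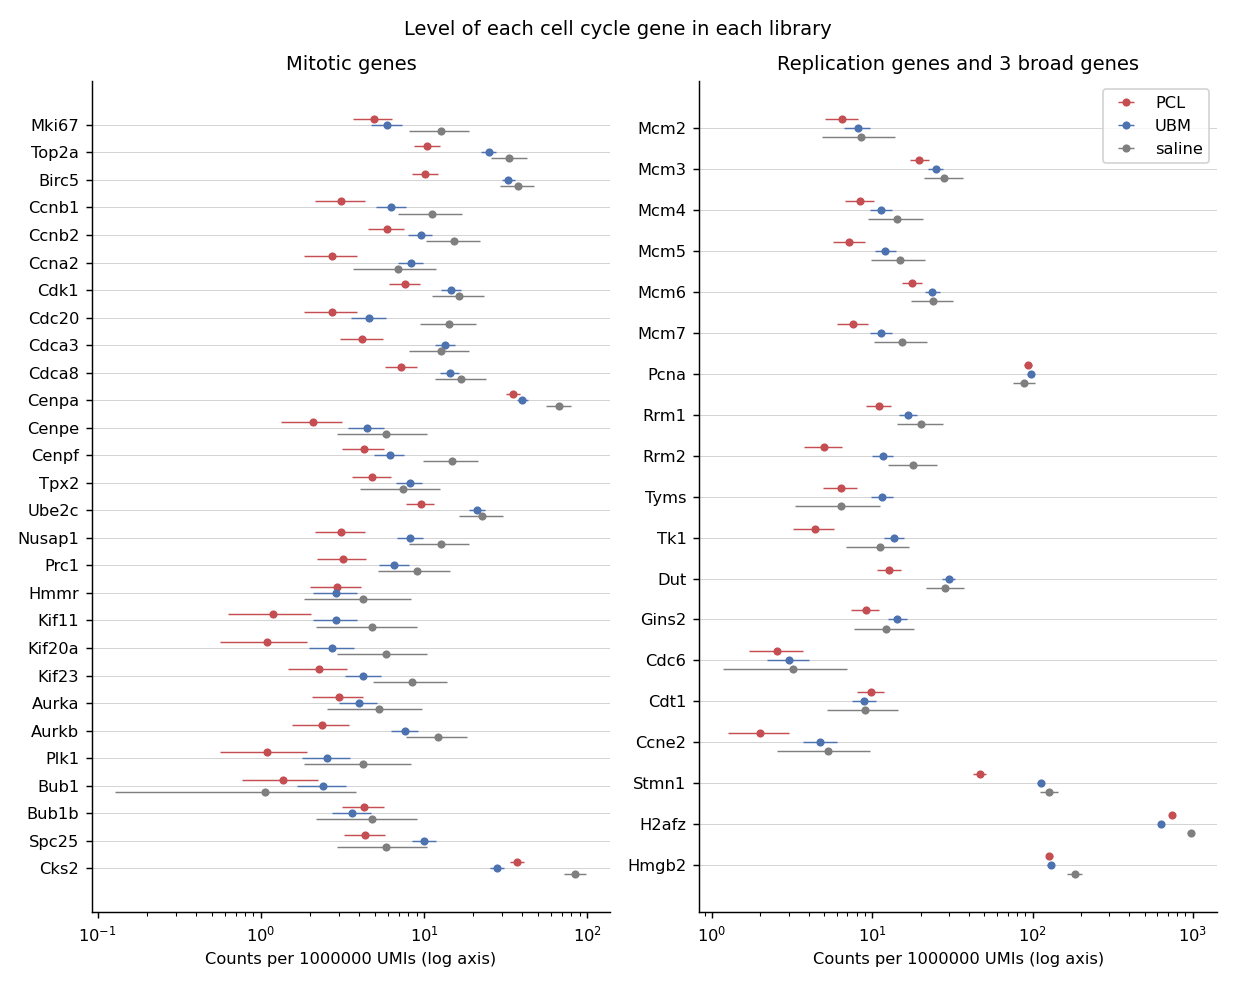
Level of each of the 47 genes in PCL (red), UBM (blue) and saline (grey) libraries, in counts per 1000000 UMIs on a log axis, with exact Poisson 95% intervals. PCL is the lowest point in 24 of 28 mitotic and 13 of 16 replication genes, and saline is the highest in 23 of 28 and 10 of 16. The share of all genes with the same order was not counted, so these counts only describe the points drawn.

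The replication genes were less confined to the cells with 10 or more mitotic UMIs, which were chosen without them. Their share of UMIs in those cells ran from 14.7% for Pcna to 84.1% for Rrm2, with a median of 32.7%, and 4 of 16 passed 50%. Over all genes with at least 50 UMIs the median was 5.005%, and 0.689% of them passed 50%. Rrm2, the cell-cycle-regulated subunit of ribonucleotide reductase, stood 103-fold higher in those cells than in the others, Tk1, thymidine kinase, 45.1-fold and Tyms, thymidylate synthase, 20.8-fold. Pcna, the sliding clamp of DNA polymerase, stood 3.36-fold higher and was seen in 35.4% of the other cells.

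Rrm2 (chromosome 12, 24708241 to 24714146, plus strand) had 55 UMIs in 24 PCL cells (4.997 CPM), 169 in 53 UBM cells (11.6 CPM) and 34 in 7 saline cells (18.01 CPM). Of its 34 saline UMIs, 21 came from 1 cell. Tk1 had 48 UMIs in 34 PCL cells (4.36 CPM), 199 in 80 UBM cells (13.6 CPM) and 21 in 15 saline cells (11.1 CPM). Tyms had 70 UMIs in 51 PCL cells (6.36 CPM), 168 in 103 UBM cells (11.5 CPM) and 12 in 9 saline cells (6.35 CPM). Tyms and Tk1 thus stood highest with UBM, and the ratio of UBM to saline was 1.81 (1.01 to 3.58) for Tyms and 1.23 (0.781 to 2.03) for Tk1, an interval that includes 1. Dut, which removes dUTP, had 12.7 CPM with PCL, 29.9 with UBM and 28.6 with saline. Rrm1, the other reductase subunit, had 10.99 CPM with PCL, 16.7 with UBM and 20.1 with saline.

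The Mcm genes encode the ring-shaped helicase that unwinds DNA, loaded by Cdc6 and Cdt1 and activated with Gins2. Mcm6 (chromosome 1, 128331590 to 128359664, minus strand) had 194 UMIs in 135 PCL cells (17.6 CPM), 345 in 220 UBM cells (23.7 CPM) and 45 in 26 saline cells (23.8 CPM). Mcm7 had 7.54 CPM with PCL, 11.4 with UBM and 15.4 with saline, and Mcm5 had 7.18 CPM with PCL, 12.1 with UBM and 14.8 with saline. All 6 Mcm genes were lowest with PCL and highest with saline, with ratios of PCL to saline from 0.484 for Mcm5 to 0.761 for Mcm2. Cdt1 and Pcna showed no such order. Cdt1 had 9.81 CPM with PCL, 8.91 with UBM and 9.003 with saline, and Pcna (chromosome 2, 132249162 to 132253314, minus strand) had 93.6 CPM with PCL, 97.4 with UBM and 88.97 with saline. The ratio of PCL to UBM was 0.961 (0.886 to 1.04) for Pcna, which took 1030 of the replication UMIs with PCL, 1421 with UBM and 168 with saline.

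Among the 3 broad genes, Stmn1, which destabilises microtubules, had 514 UMIs in 192 PCL cells (46.7 CPM), 1639 in 371 UBM cells (112 CPM) and 240 in 51 saline cells (127 CPM). Over the pooled libraries, 57.5% of its UMIs fell in the cells with 10 or more mitotic UMIs, where it stood 26.4-fold higher. By library those cells held 206 of 514 Stmn1 UMIs with PCL (40.1%), 1013 of 1639 with UBM (61.8%) and 157 of 240 with saline (65.4%). Hmgb2, a chromatin protein, stood 9.89-fold higher there and H2afz, a histone variant, 4.64-fold, but both were seen in many other cells (37.2% and 86.3%). H2afz had 741 CPM with PCL, 638 with UBM and 970.2 with saline.

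Over all 47 genes and with no minimum level, 33 were at least 1.5-fold lower with PCL than with saline and none was as much higher, beside 20.2% lower and 20.6% higher among all genes. PCL against UBM gave 31 lower and none higher, beside 17.9% and 20% of all genes. UBM against saline gave 15 lower and 3 higher, beside 23.8% and 18.8%. At a minimum of 10 CPM in 1 of the libraries compared, which removes many mitotic genes, PCL against saline gave 23 lower and 0 higher of 29 (background 11.9% and 12.7%), PCL against UBM 16 and 0 of 24 (8.89% and 17.2%) and UBM against saline 11 and 2 of 31 (18.5% and 9.5%). The 2 higher genes with UBM were Spc25 and Tyms. A gene can meet this minimum through the higher library alone. Of the 28 mitotic genes, 24 were under 10 CPM with PCL, 19 with UBM and 13 with saline. The counts at 10 CPM thus only describe the genes that passed. With each cell counted alike the counts at 10 CPM were 5 lower and 1 higher for PCL against UBM, and 5 lower and 0 higher for UBM against saline. With a pseudocount of 10 CPM they were 7 lower for PCL against UBM, and 5 lower and 0 higher for UBM against saline, where the trimmed mean of M values and the median of ratios each gave 6 lower. The 3 comparisons share libraries, so they are not separate pieces of evidence.

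Summed over the 28 mitotic genes the level was 182 CPM with PCL, 301 with UBM and 458 with saline, a ratio of 0.398 (0.367 to 0.431) for PCL over saline, 0.606 (0.575 to 0.639) for PCL over UBM and 0.656 (0.610 to 0.707) for UBM over saline. Without the cells of 10 or more mitotic UMIs it was 100.3 CPM with PCL, 89.4 with UBM and 167 with saline, and the ratio of PCL to UBM turned to 1.12. Outside those few cells the mitotic sum was thus not lower with PCL than with UBM, but Cks2 and Cenpa made up 57.6% of it with PCL and 43.8% with UBM. What was left of the sum without Cks2 and Cenpa was lower with PCL than with UBM. The turn thus rests on those genes and does not hold for the sum of the other mitotic genes. Summed over the 16 replication genes the level was 223 CPM with PCL, 303 with UBM and 308 with saline, a ratio of 0.726 (0.663 to 0.796), 0.736 (0.701 to 0.774) and 0.985 (0.903 to 1.08) for the same comparisons.

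The mitotic cells were spread over 8 of the 9 clusters and did not form a cluster of their own. Cluster FP1 held 30 of the 104 cells with 10 or more mitotic UMIs, RP2 held 24, R1 22, R2 10, F1 8, R3 5, RP3 4, RP1 1 and F2 none. As a share of the cluster over the pooled libraries they were most frequent in R1 at 22 of 349 (6.30%, 3.99 to 9.39%), although within UBM the share was 13.1% in FP1 and 5.88% in R1, and rarest among larger clusters in RP1 at 1 of 624 (0.160%, 0.00406 to 0.890%). The RP1 level over the mitotic genes was 67.4 CPM, against 148 CPM in F2 and 202 to 355 CPM in the other clusters, and its median of 4215 UMIs per cell was close to that of RP3 (4346 UMIs, 243 CPM). Of the 28 mitotic genes, 9 were highest in R1 and 9 in R2, while of the 16 replication genes 6 were highest in R1 and 5 in RP2. Cks2 and Cdk1 were highest in the 56 cells of F2, at 68.9 and 20.7 CPM, on few UMIs.

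Within clusters the order of the libraries differed. In FP1, 13 of 1036 (1.25%, 0.670 to 2.14%) PCL cells had 10 or more mitotic UMIs, 13 of 99 (13.1%, 7.18 to 21.4%) UBM cells and 4 of 72 (5.56%, 1.53 to 13.6%) saline cells. The summed mitotic level in FP1 was 192 CPM with PCL, 1301 with UBM and 543 with saline, and without the most mitotic cell of each it was 167, 1095 and 340.4 CPM. UBM thus stood above saline in FP1, a ratio of 2.40 (2.09 to 2.75), although it stood under saline over all cells. That interval counts each UMI as separate and is too narrow. Of the mitotic UMIs in FP1, 92.8% with UBM and 74.7% with saline lay in those 13 and 4 cells. The intervals of the 2 shares of cells overlap. FP1 held 59.1% of PCL cells but 4.34% of UBM cells, so that the 13 UBM cells came from a small cluster.

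RP2, the largest cluster with UBM, held 23 of 640 (3.59%, 2.29 to 5.34%) UBM cells at this threshold, 1 of 58 PCL cells and 0 of 38 saline cells, which allows up to 7.89%. R1 held 17 of 289 (5.88%, 3.46 to 9.25%) UBM cells and 5 of 46 (10.9%, 3.62 to 23.6%) saline cells, and 0 of its 14 PCL cells, which allows up to 21.4%. R2, which occurred with UBM alone, held 10 of 254 (3.94%, 1.90 to 7.12%). RP1, the second most frequent cluster with UBM, held 0 of 574 UBM cells, which allows up to 0.523%, and 1 of 37 PCL cells. In F1 the level was 146 CPM with PCL and 138 with UBM, under 899.8 CPM with saline. The saline level rested on 4 of 64 cells, and was 646 CPM without the most mitotic of them.

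**Figure D4:**
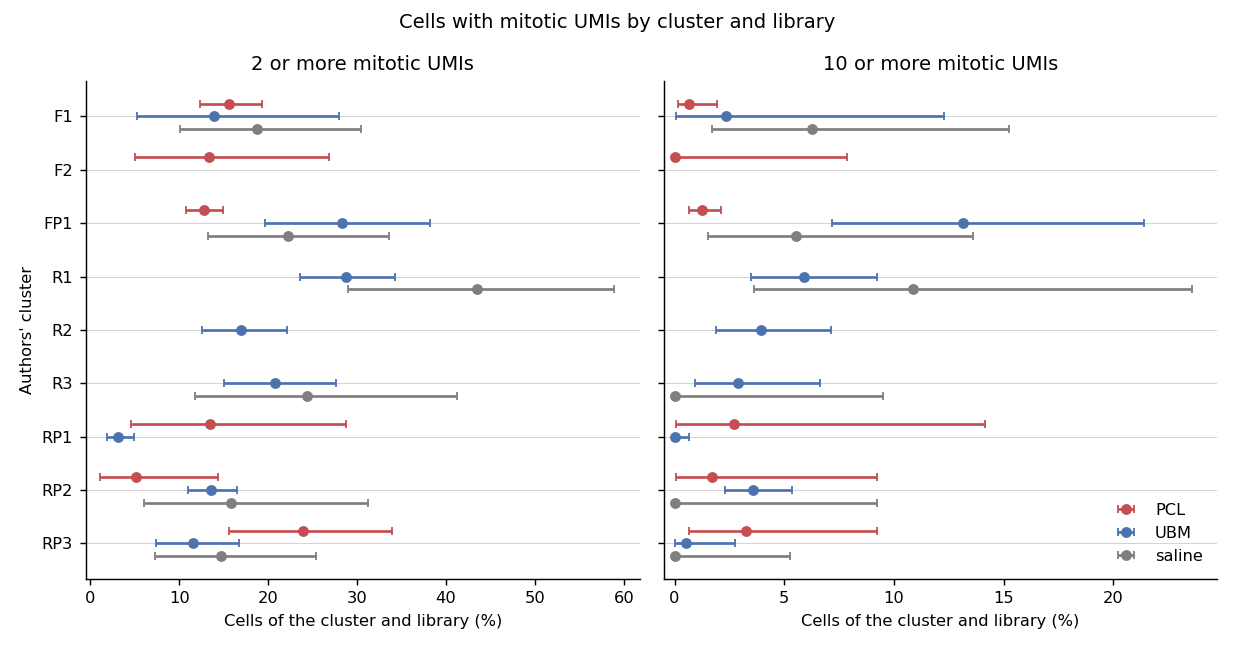
Share of cells (percent) with 2 or more (left) and 10 or more (right) mitotic UMIs in each of the authors' clusters, for PCL, UBM and saline with exact 95% intervals and for clusters with at least 20 cells in a library. At 10 or more UMIs FP1 of the UBM library stands at 13.1%, and RP1 of the UBM library at 0.

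The mix of clusters differed between the libraries, and its part in the shares was not tested. With the 5 clusters held by at least 20 cells in both libraries weighted as in PCL, the share of cells with 10 or more mitotic UMIs was 1.25% with PCL and 8.89% with UBM. Weighted as in UBM, where RP1 and RP2 dominate, it was 2.22% with PCL and 2.44% with UBM, and that PCL value rests largely on 1 of 37 cells in RP1 and 1 of 58 in RP2. The other clusters, left out for lack of PCL cells, held 724 UBM cells and 32 of the 70 UBM cells with 10 or more mitotic UMIs. For PCL against saline, over 4 clusters, it was 1.22% with PCL and 5.24% with saline in the PCL mix, and 1.73% and 3.31% in the saline mix. For UBM against saline, over 6 clusters, it was 4.16% with UBM and 2.74% with saline in the UBM mix, and 5.05% and 4% in the saline mix, and those clusters leave out 836 UBM cells with 10 such cells among them, 574 of the 836 in RP1 with none. Over the same 6 clusters without any weighting the share was 4.16% with UBM and 4% with saline, so that the order differed from that over all cells before any weighting. These weighted shares rest on 0 to 23 such cells per cluster and library.

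Replication and mitotic UMIs marked overlapping but different cells. At 10 or more replication UMIs there were 19 of 1753 (1.08%, 0.654 to 1.69%) PCL cells, 81 of 2280 (3.55%, 2.83 to 4.40%) UBM cells and 10 of 341 (2.93%, 1.42 to 5.33%) saline cells. Of these, 11 PCL, 40 UBM and 4 saline cells also had 10 or more mitotic UMIs. A further 8 PCL, 41 UBM and 6 saline cells had replication UMIs only at that threshold, and 10 PCL, 30 UBM and 9 saline cells mitotic UMIs only. The replication UMIs of the top cell in each library came from Mcm6 (12) and Rrm2 (10) with PCL, from Rrm2 (14) and Mcm6 (12) with UBM and from Rrm2 (21) and Pcna (14) with saline. Each of these 3 cells lay in FP1, and held 79 replication UMIs with PCL, 76 with UBM and 93 with saline. At 2 or more replication UMIs the shares were 30.01% of PCL, 29.1% of UBM and 24.6% of saline cells, and without Pcna 12.6%, 15.6% and 15.2% in that order, so that PCL was the highest with Pcna and the lowest without it.

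**Figure D5:**
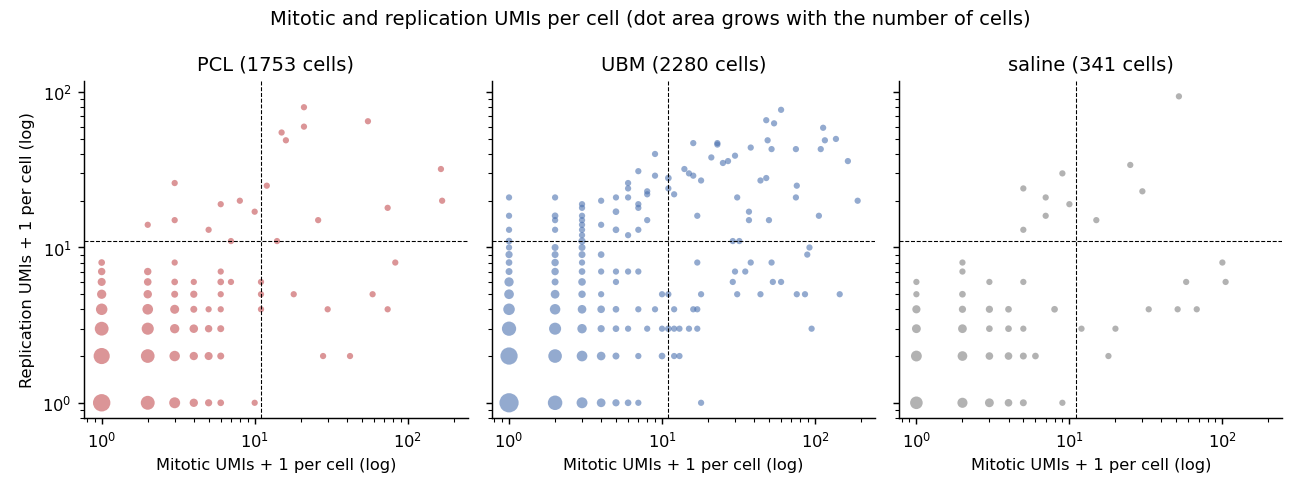
Replication UMIs against mitotic UMIs per cell, each plus 1 on log axes, for PCL, UBM and saline libraries, where dot area grows with the number of cells at a point and dashed lines stand at 10 UMIs. The upper right field holds 11 PCL, 40 UBM and 4 saline cells, the upper left 8, 41 and 6 and the lower right 10, 30 and 9.

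Genes of 4 further lists were compared between the cells with 10 or more mitotic UMIs and the others. A gene can meet the minimum used here, 50 CPM, through the mitotic cells alone, so the counts of these 4 lists only describe the genes that passed it. Of the 62 other mitotic genes, 21 had at least 50 CPM in these cells or the others over the pooled libraries, and 20 were at least 1.5-fold higher and none lower, beside 20.4% higher and 13.5% lower among all genes. Of the 60 other replication genes measured, 22 of 22 were higher. Arl6ip1 was the 1 other mitotic gene of the 21 under 1.5-fold, with 416 CPM in these cells and 291 in the others. Pbk, a mitotic kinase, had 73.98 CPM in these cells and 0.650 in the others, and Cenpm, a centromere protein, had 62.8 CPM in these cells and 1.19 in the others. Clspn, claspin of the replication checkpoint, was under the minimum and had 41.1 CPM in these cells and 1.19 in the others, and 2810417H13Rik had 466 CPM in these cells and 5.51 in the others. Pttg1, securin, which holds sister chromosomes together, did not pass the minimum, with 46.3 CPM in these cells and 43.8 in the others.

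The list of G1 cyclins, inhibitors and pocket proteins, which govern entry into the cycle, went both ways. Cdkn2c, an inhibitor of Cdk4 and Cdk6, had 87.4 CPM in these cells and 8.15 in the others, and Ccnd1, cyclin D1, which activates the same kinases, had 108 CPM in these cells and 24.8 in the others. Btg1, an antiproliferative gene, had 651 CPM in these cells and 1078 in the others, with ratios of 0.359 with PCL, 0.753 with UBM and 0.847 with saline. Cdkn1b, the inhibitor p27, was under the minimum, with 18.7 CPM in these cells and 29.4 in the others. Its ratio was 1.41 with PCL, 0.290 with UBM and 0.772 with saline, so the pooled direction does not hold with PCL. Of 11 genes of this list at 50 CPM or more, 6 were at least 1.5-fold higher and 2 lower, beside the same 20.4% higher and 13.5% lower of all genes. Cdkn2c and Ccnd1 met that minimum through the mitotic cells alone, so the count only describes the genes that passed. By library 3 were higher and 4 lower of 8 with PCL, 6 and 1 of 10 with UBM and 5 and 1 of 13 with saline. Of the macrophage growth signals, receptors and factors through which macrophages are told to divide or mature, 0 of 12 were higher in each library and 10 were lower with PCL, 7 with UBM and 8 with saline, beside 33% higher and 21.9% lower among all genes with PCL, 22.1% and 13% with UBM, and 31.7% and 18.5% with saline. With the other cells weighted to the clusters of the mitotic cells the lower genes numbered 9 with PCL, 5 with UBM and 4 with saline, and again 0 were higher. Myc, of this list but under the minimum, went the other way, with 29.1 CPM in the mitotic cells and 13.9 in the others. By library its ratio was 3.32 with PCL, 1.78 with UBM and 1.03 with saline. Igf1r, also under the minimum, had 6.73 CPM in the mitotic cells and 19.3 in the others. Maf, a transcription factor of mature macrophages, had 199.5 CPM in these cells and 510.2 in the others, and Il4ra, the interleukin-4 receptor, had 55.3 CPM in these cells and 151 in the others. With the other cells weighted to the same clusters the ratio was 0.448 for Maf and 0.423 for Il4ra, against 0.391 and 0.365 without weighting. By library the Il4ra ratio was 0.486 with PCL, 0.279 with UBM and 0.942 with saline, where 63.6 CPM stood against 67.6, so the pooled value does not hold with saline. Depth moved with these ratios too, since the mitotic cells held more UMIs, and its part was not tested.

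Outside all lists, the 12 genes with the highest ratios in cells with 2 or more mitotic UMIs are given by value. In these cells 2.74% of 2632 genes were at least 1.5-fold higher over the pooled libraries and 1.71% lower. Within libraries the share was 1.82% higher and 0.764% lower with PCL, 5.45% and 3.29% with UBM and 10.1% and 8.14% with saline. Hist1h2ap, a replication-dependent histone H2A, had 204 CPM in these cells and 22.1 in the others, and H2afx, the histone variant of DNA damage signalling, had 51.7 CPM in these cells and 16.05 in the others. Gmnn, geminin, which blocks Cdt1 from loading the Mcm ring again, had 59.01 CPM in these cells and 19.4 in the others. Tmpo, a protein of the nuclear lamina, had 78.6 CPM in these cells and 28.7 in the others, and Dtymk, which makes the precursor of dTTP, had 72.9 CPM in these cells and 34.7 in the others. At 10 or more mitotic UMIs the ratio was 39.00 for Hist1h2ap, 10.1 for H2afx, 6.50 for Gmnn, 7.62 for Tmpo and 4.37 for Dtymk. Zranb3, a helicase of stalled forks, did not follow, with ratios of 2.42 at 2 or more UMIs and 1.49 at 10 or more. By library the latter was 0.465 with PCL, 1.43 with UBM and 0 with saline. Tsc22d1, a transcription regulator, rested on 1 library at 10 or more UMIs, with ratios of 13.9 with PCL, 1.03 with UBM and 1.37 with saline. The others of the 12 were 2700094K13Rik, Lsm2, Hmgn1, Qpct and Dctpp1, with ratios at 2 or more UMIs from 2.12 for Dctpp1 to 3.05 for 2700094K13Rik. At 10 or more UMIs Qpct was lower with PCL, with ratios of 0.164 with PCL, 2.74 with UBM and 3.98 with saline.

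Between libraries the further lists are given with and without a minimum level. With no minimum, 43 of 62 other mitotic genes were at least 1.5-fold lower and 2 higher with PCL than with saline, and 35 lower and 1 higher with PCL than with UBM, beside the backgrounds given above for no minimum. At 10 CPM it was 8 lower and 0 higher of 19 with PCL against saline and 2 lower and 1 higher of 16 with PCL against UBM. Summed over the 62 genes the ratio was 0.894 (0.864 to 0.926) for PCL over saline and 0.962 (0.944 to 0.979) for PCL over UBM, much nearer to 1 than over the 28 members. Of 60 other replication genes, 27 were lower and 4 higher with PCL than with saline, and 23 lower and 2 higher with PCL than with UBM. At 10 CPM it was 9 lower and 0 higher of 27 against saline and 4 lower and 1 higher of 24 against UBM. Their summed ratio was 0.985 (0.943 to 1.03) for PCL over saline, an interval that includes 1, and 1.12 (1.10 to 1.15) for PCL over UBM, where the sum was higher with PCL although more single genes were lower. Ran and Ranbp1 held much of that sum, at 391 and 308 of 1245 CPM with PCL and 273 and 202 of 1108 CPM with UBM. Both stood higher with PCL, also against saline (ratios of 1.39 and 1.21). The summed ratios thus do not describe the other genes of the list. Racgap1, which guides cytokinesis, had 4.45 CPM with PCL and 16.4 with saline, a ratio of 0.271 (0.170 to 0.440). Lmnb1, lamin B1, went the other way, with 57.7 CPM with PCL and 11.2 with UBM, a ratio of 5.13 (4.32 to 6.13). Ccnd2, cyclin D2, had 15.99 CPM with PCL and 69.9 with saline, a ratio of 0.229 (0.182 to 0.289), and 12.3 CPM with UBM and 69.9 with saline, a ratio of 0.176 (0.139 to 0.222). Mdm2, which degrades p53, had 97.4 CPM with PCL and 48.2 with UBM, a ratio of 2.02 (1.84 to 2.23).

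The cells with 10 or more mitotic UMIs carried macrophage RNA in every library, at a lower level than the other cells. All 12 macrophage markers had UMIs in them in each library, and their summed level was 10295 CPM against 24989 in the other cells with PCL, 14756 against 18324 with UBM, and 18805 against 34386 with saline. Of the 6 measured T and NK cell markers, 1 had UMIs with PCL, 5 with UBM and 1 with saline, at 22.1 CPM against 72.3 in the other cells with PCL, 218 against 73.03 with UBM and 35.3 against 46.4 with saline, and 113 of the 192 UBM UMIs were Gzma in 1 cell. Of the 3 measured markers of satellite cells, the stem cells of muscle, none had a UMI in these cells with PCL or UBM and 1 UMI of Des was seen with saline. Of the 6 endothelial markers 2 had UMIs with PCL, 4 with UBM and 2 with saline, at 6.31 CPM against 12.9 in the other cells with PCL, 20.5 against 19.1 with UBM and 14.1 against 6.30 with saline. Fibroblast markers stood at 85.2 CPM against 81.02 in the other cells with PCL, 28.4 against 32.4 with UBM and 7.07 against 51.5 with saline. Of the 6 measured dendritic cell markers, 0 had UMIs with PCL, 4 with UBM and 1 with saline. Their UBM level was 86.4 CPM against 23.7 in the other cells, in 7 of 70 cells, and 65 of the 76 UMIs were Cd209a. Monocyte markers stood at 612 CPM against 3061 in the other cells with PCL, 1440 against 1904 with UBM and 2007 against 1045 with saline. Further markers of T, B, mast and satellite cells were not analysed here, and the part of other cell types in the mitotic cells was not tested.

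In FP1 the cells with 10 or more mitotic UMIs differed widely in macrophage RNA. Lyz2, lysozyme, had 5 to 278 UMIs with a median of 45 in the 13 PCL cells, 1 to 396 with a median of 25 in the 13 UBM cells and 4 to 486 in the 4 saline cells. As a median level it was 2142 CPM against 13921 in the other FP1 cells with PCL, 1604 against 1924 with UBM and 14078 against 17758 with saline. The mitotic PCL cells of FP1 thus held far less Lyz2 RNA per UMI than their neighbours, and the UBM cells of FP1 held little in either class. Cd68, a lysosomal protein of macrophages, was seen in 12 of 13 PCL, 13 of 13 UBM and 4 of 4 saline cells. Acp5, the acid phosphatase of osteoclasts and macrophages, had 853 CPM in the 13 PCL cells, 363 in the 13 UBM cells and 806 in the 4 saline cells. The other FP1 cells are not set beside these Acp5 levels, which thus show no difference. Over all clusters, Mmp9, a gelatinase shared by neutrophils and osteoclasts, made up 76 of the 87 neutrophil-list UMIs of the 70 mitotic UBM cells. Those 76 lay in 10 cells, 31 of them in 1 cell, and the mitotic saline cells held 0. Lyz2, Cd68, Acp5 and Mmp9 were chosen after their values were seen, and these cells were given no other name.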

How the data were processed

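The deposited table holds UMI counts per gene and cell. The authors made these counts with Cell Ranger and clustered the pooled, normalised cells with Seurat 2, per the labels' protocols and the submitters' processing notes. Those notes name hg38, a human build, while the symbols in the table are written as mouse genes. Cells took their cluster and condition from the deposited annotation, where ECM was matched to UBM by that sample's title, and PBS and Synthetic by meaning to saline and PCL. No column was left unused (0).

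Counts were summed over the cells of a library and scaled to its total. A gene was called higher or lower at a ratio of 1.5, among genes with at least 10 CPM in 1 of the libraries compared and also with no minimum. For cells with mitotic UMIs against the others the minimum was 50 CPM. CPM intervals are exact Poisson, ratios exact conditional binomial and shares Clopper-Pearson, at 95%. Intervals on UMIs count each UMI as separate, so they are too narrow where a few cells hold most of them. A count of 0 allows up to 3 counts, a floor of 0.273 CPM with PCL, 0.206 with UBM and 1.59 with saline. No test between conditions could be run with 1 library each, and p-values are not given. Doublets were not called. Gene positions came from GENCODE M21 on GRCm38. Promoters were 32851 RefSeq windows over 27025 genes, where a gene counted once if any of its windows matched. Outside the 47 genes, names came from the extremes of each further cycle list and from the 12 highest ratios in cells with 2 or more mitotic UMIs among genes above 1 in all 3 libraries.

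The genes and lists were chosen with earlier results of these data known. The threshold of 10 mitotic UMIs and the alternatives built on it were set after seeing the data. Counting was tested on simulated data. Python 3.11.15, numpy 2.4.6, pandas 2.3.3, scipy 1.17.1 and matplotlib 3.10.9 were used, with edgeR 4.0.16 in R 4.3.3 for the trimmed mean of M values alone.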

Additional observations from a re-analysis of the deposited data

Results flagged for a closer look

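The ratio of summed mitotic UMIs between libraries lay above 1 in some of the authors' clusters and under 1 in others, with counting intervals that excluded 1 in each cluster named here. These differences between clusters were not tested, since each condition is 1 library. The intervals count each UMI as separate although a few cells can hold most of them. They are thus too narrow, and excluding 1 only served to choose what is listed. For PCL over UBM the ratio was 0.606 over all cells, 3.38 in RP1 and 0.147 in FP1. The 37 PCL cells of RP1 hold 1 cell with 10 or more mitotic UMIs. For PCL over saline it was 0.398 over all cells, 2.04 in RP2, 1.54 in RP3, 0.162 in F1 and 0.354 in FP1. In RP2 a single PCL cell gave 71.6% of the mitotic UMIs, and without it the PCL level was 68.8 CPM in place of 237 CPM, under the 116 CPM of saline, so the direction rests on that cell. For UBM over saline it was 0.656 over all cells, 2.40 in FP1, 2.50 in RP2, 1.52 in RP3, 0.612 in R1 and 0.153 in F1. In RP3 a single UBM cell gave 55.1% of the mitotic UMIs, and without it the UBM level was 116 CPM in place of 255 CPM, under the 168 CPM of saline, so this direction too rests on 1 cell. In FP1 a single saline cell gave 39.2% of the saline UMIs, and in F1 another gave 31.3%.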

How the results depend on the processing

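Of 183 recomputed values, 111 kept their direction and size, 71 moved and 1 turned round. The last count does not hold every value that crossed 1, since the replication ratio of UBM to saline, close to 1, did so too. The cause was not tested for any of them, beyond what an alternative leaves out. No paired analysis was possible because each condition is 1 library, and no replicate could be left out. The share of cells with 2 or more mitotic UMIs (13.9% with PCL, 14.3% with UBM and 22.6% with saline) became 41.0%, 36.8% and 47.2% at 1 or more UMIs, 5.88%, 7.02% and 14.1% at 3 or more, 4.56%, 8.25% and 10.6% without Cks2, Cenpa and Hmmr, 4.32%, 6.09% and 13.4% after thinning to 2500 UMIs, and 11.2%, 12.4% and 16.4% for 2 or more different genes, in the order PCL, UBM and saline. With equal weight for FP1 and RP3 it was 18.3% with PCL, 19.9% with UBM and 18.5% with saline, so that saline lay under UBM. The share with 10 or more UMIs was then 2.26% with PCL, 6.82% with UBM and 2.78% with saline, again under UBM, and after thinning (5 or more UMIs) 2.27% with UBM. The replication share in the same order was 60.9%, 57.5% and 52.2% at 1 or more UMIs, 13.5%, 15.6% and 13.5% at 3 or more, 8.19%, 11.7% and 9.16% after thinning, and 12.6%, 15.6% and 15.2% without Pcna.

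Of the 47 genes, UBM against saline gave 2 higher and 11 lower at 10 CPM. The higher became 0 with each cell counted alike and 0 with a pseudocount of 10 CPM, and the lower became 6 with the trimmed mean of M values, 6 with the median of ratios, 5 with each cell counted alike and 5 with that pseudocount. PCL against UBM gave 0 higher and 16 lower, with 1 higher and 5 lower with each cell counted alike, 31 lower with no minimum and 7 with that pseudocount. These scalings moved the median of all genes by 0.15 (trimmed mean) and 0.13 (median of ratios) on the log2 scale for UBM against saline, and by -0.12 and -0.10 for PCL against UBM, where a total without ribosomal genes and Malat1 moved it by -0.14.

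The mitotic ratio of PCL to UBM was 0.606 and became 0.560 with the trimmed mean, 0.565 with the median of ratios, 0.554 without ribosomal genes, 0.721 with each cell counted alike and 1.12 without cells of 10 or more mitotic UMIs, where its direction turned. That turn rests on Cks2 and Cenpa, as given above. The mitotic ratio of PCL to saline was 0.364 without F2 and R3 and 0.602 without the cells of 10 or more mitotic UMIs. That of UBM to saline was 0.723 with the trimmed mean, 0.714 with the median of ratios, 0.545 with each cell counted alike, 0.709 without the most mitotic cell of each library and 0.537 without cells of 10 or more mitotic UMIs. The replication ratio of PCL to UBM was 0.680 with the trimmed mean, 0.686 with the median of ratios, 0.673 without ribosomal genes, 0.850 with each cell counted alike, 0.864 without those cells and 0.630 without Pcna. That of PCL to saline was 0.829 without the cell with the most replication UMIs, 0.844 without the mitotic cells and 0.593 without Pcna. That of UBM to saline was 0.985 (0.903 to 1.08), an interval that includes 1. It crossed 1, to 1.09 with the trimmed mean and 1.14 without the cell with the most replication UMIs. Genes at least 1.5-fold higher in cells with mitotic UMIs numbered 50 with PCL, 139 with UBM, 288 with saline and 72 pooled. At 3 or more UMIs they were 230 with PCL, 323 with UBM and 220 pooled, and at 10 or more 1075 with PCL, 617 with UBM, 984 with saline and 594 pooled. All alternatives for the share with 10 or more UMIs, those without Pcna or without the mitotic cells, and the 10-UMI gene counts were chosen after seeing the data. The 341 saline cells and their 13 mitotic cells limit every value set against saline.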
